A study of Homo sapiens with 16 samples.

Results

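STC1 and STC2 are the stanniocalcin genes of the human genome, 2 of the 58735 genes listed for each of 2 pancreatic ductal adenocarcinoma cell lines. They were taken by symbol and chosen by the FPKM values of STC1, whose mean was about 8-fold higher with gemcitabine in each line, so the differences of both genes between treated and control cells are given as descriptions, without a test. Poly-A-enriched RNA was sequenced from BxPC3 cells treated with gemcitabine and BxPC3 control cells, and from PANC-1 cells treated with gemcitabine and PANC-1 control cells, with 4 libraries in each of the 4 groups. Gemcitabine is a deoxycytidine analogue that blocks DNA synthesis once it is phosphorylated in the cell. The labels give no dose, time or vehicle and do not say whether replicates were separate cultures, so the spread behind each p-value is that of these libraries and could be technical only.

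Stanniocalcins are secreted glycoprotein hormones, first known from fish, where they lower calcium uptake. In mammals they act mainly on nearby cells: both human proteins bind and inhibit PAPP-A and PAPP-A2, the metalloproteinases that cleave insulin-like growth factor (IGF) binding proteins and so release IGF. STC1 and STC2 are both known targets of the hypoxia-inducible factor HIF-1, and STC2 is also a target of ATF4, the transcription factor of the integrated stress response, and restrains store-operated calcium entry through STIM1.

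STC2 (ENSG00000113739) lies on the minus strand of chromosome 5, 173314713 to 173329503 (GRCh38), with a length of 6128 bases in the deposited table and 5 transcripts in GENCODE 29. Only its promoter is shown, because the RefSeq promoters used held no entry for STC1. Transcripts of STC2 were plentiful in PANC-1 and almost absent in BxPC3. The sequence below is RefSeq's, on GRCh38.p14, chr5:173328365-173328664, minus strand, with 250 bases before and 50 after the RefSeq start. The deposited gene model begins further upstream. Capitals mark the matches to the motifs searched on both strands, which were the forms of the HIF-1 core, ACGTG with A in front and GCGTG with G in front, the NF-Y box CCAAT, and TGACG, part of the element bound by CREB and ATF proteins.
STC2 promoter: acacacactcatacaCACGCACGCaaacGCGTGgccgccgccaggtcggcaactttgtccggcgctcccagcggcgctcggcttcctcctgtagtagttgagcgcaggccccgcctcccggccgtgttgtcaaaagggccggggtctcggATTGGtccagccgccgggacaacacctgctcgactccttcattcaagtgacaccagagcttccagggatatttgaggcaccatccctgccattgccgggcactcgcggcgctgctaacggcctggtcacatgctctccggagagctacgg
GCGTG occurred at position 29 counted from the 5′ end, and on the other strand, read as CACGC, at positions 16 and 20, which share a base. CCAAT occurred on the other strand at position 151. GCGTG in either orientation was held by 36.5% of the 35116 RefSeq promoters of the same length and CCAAT by 34.6%, while ACGTG (21.4% of promoters) and TGACG (24.6%) had no match in this window. Only these motifs were searched, so other elements that ATF4 may bind were not examined.

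Depth was 22152034 to 37777222 gene reads per library, as worked back from the deposited FPKM values (fragments per kilobase of gene length, scaled per library). SMAD4, a gene that BxPC3 is known to have lost, was without a read in that line (8 libraries) and averaged 3.68 ± 0.437 FPKM with gemcitabine and 3.84 ± 0.193 FPKM in control in PANC-1 (SD, n = 4 each). Of 6 epithelial markers, all were tested in BxPC3, whereas in PANC-1 the adhesion protein CDH1 (0.551 FPKM with gemcitabine, 0.921 FPKM in control) and the keratin KRT7 did not pass the filter on low values (at least 1 FPKM in at least 4 of 8 libraries). The summed level of the 6 was 2672 to 3101 FPKM with gemcitabine and 2826 to 3297 FPKM in control in BxPC3, and 551 to 758 FPKM with gemcitabine and 337 to 369 FPKM in control in PANC-1, where KRT8, KRT18 and KRT19 rose. In BxPC3, EPCAM, KRT8, KRT18, CDH1 and KRT7 rose, while KRT19, the most abundant, fell to 1327 FPKM with gemcitabine from 1841 FPKM in control. Of 16 markers of immune, endothelial, fibroblast and normal pancreatic cells, 12 in BxPC3 and 14 in PANC-1 stayed below 1 FPKM in every library. Their summed level was 24.0 to 25.6 FPKM with gemcitabine and 10.4 to 11.0 FPKM in control in BxPC3, where the trypsinogen gene PRSS1, which has near-identical copies, the endothelial cadherin CDH5 and the collagen COL1A1 rose and COL3A1 fell, and 9.36 to 13.7 FPKM with gemcitabine and 12.2 to 13.5 FPKM in control in PANC-1, where PRSS1 rose and COL1A1 fell. The T cell marker CD3E and INS, insulin, had no read in PANC-1, and the pan-leukocyte marker PTPRC had 3 reads over the 4 gemcitabine and 7 over the 4 control libraries of BxPC3. CDH5 passed the filter in BxPC3 only through the gemcitabine group, where it is high, so its call is a description. The part of these markers in the results was not tested. PANC-1 gemcitabine replicate 1 stood apart: relative to the mean of the other libraries of its group, its top quartile of genes by GC content had a median log2 deviation of 0.45 and its bottom quartile one of -0.42. Other libraries, each set against the rest of its group, stayed between -0.17 and 0.15. For the remaining PANC-1 gemcitabine libraries that rest includes replicate 1. The values of both genes in PANC-1 are also given without it.

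STC1 (ENSG00000159167) lies on the minus strand of chromosome 8, 23841915 to 23854807 (GRCh38), with a length of 4149 bases in the deposited table and 2 transcripts in GENCODE 29. No other annotated gene overlaps STC1 or STC2, so reads of an antisense partner do not enter their values. STC1 was higher in all 4 gemcitabine libraries than in any control of the same line, in both lines. In BxPC3 the gemcitabine libraries, replicates 1 to 4, had 9.06, 9.05, 8.69 and 8.73 FPKM, against 0.973, 0.931, 1.26 and 1.25 FPKM in the controls. The gemcitabine libraries lay close together, and the lowest of them was 6.92 times the highest control. The means were 8.88 ± 0.199 FPKM with gemcitabine and 1.10 ± 0.175 FPKM in control, a ratio of 8.05. The difference was 2.24 ± 0.06 (SE) in log2(FPKM + 1), a scale that shrinks differences of genes near 1 FPKM. These values rest on 1099 to 1322 reads per gemcitabine library and 113 to 194 per control. In RNA of whole cultures, a higher level per cell and a larger share of cells that express the gene cannot be told apart.

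In PANC-1, STC1 had 21.9, 26.1, 26.9 and 26.1 FPKM in the gemcitabine libraries, against 3.16, 3.02, 2.75 and 3.48 FPKM in the controls. Gemcitabine replicate 1 was the low library of its group, and still 6.28 times the highest control. The means were 25.2 ± 2.27 FPKM with gemcitabine and 3.10 ± 0.306 FPKM in control, a ratio of 8.14 and a log2 difference of 2.68 ± 0.08 (SE). Without gemcitabine replicate 1 the gemcitabine mean was 26.4 ± 0.427 FPKM and the ratio 8.50.

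STC2 was higher with gemcitabine in PANC-1 too, by a smaller ratio and at a far higher level. The PANC-1 gemcitabine libraries had 98.2, 84.5, 84.5 and 81.6 FPKM, against 42.3, 41.8, 40.0 and 41.6 FPKM in the controls. Here gemcitabine replicate 1 was the high library of its group, the opposite of its place for STC1. The longest transcript of STC1 has a GC content of 43.8%, with 31.8% of the tested PANC-1 genes below it, and that of STC2 51.7%, with 59.6% below it. Whether GC content sets these deviations was not tested. The STC2 means were 87.2 ± 7.43 FPKM with gemcitabine and 41.4 ± 0.998 FPKM in control, a ratio of 2.11 and a log2 difference of 1.05 ± 0.07 (SE). Without gemcitabine replicate 1 the gemcitabine mean was 83.5 ± 1.66 FPKM and the ratio 2.02.

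In BxPC3, STC2 was barely detected in either group and did not pass the filter on low values. The gemcitabine libraries had 15, 15, 13 and 10 reads of STC2, against 3, 5, 7 and 2 in the controls, which corresponds to 0.0749, 0.0695, 0.0696 and 0.0476 FPKM with gemcitabine and 0.0175, 0.0235, 0.0351 and 0.00874 FPKM in control. All gemcitabine libraries were above all controls, and 2 of the 4 controls were at or below the floor of 3 reads. Scaled for depth, the 53 reads with gemcitabine were 3.12 times the 17 reads in control. The exact 95% interval of 1.78 to 5.74 pools the reads of each group, so it allows for counting error alone. It leaves out the spread between libraries and is not a test. PCR copies of a molecule are also counted as reads. On the log2(FPKM + 1) scale the difference was 0.06.

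**Figure D1:**
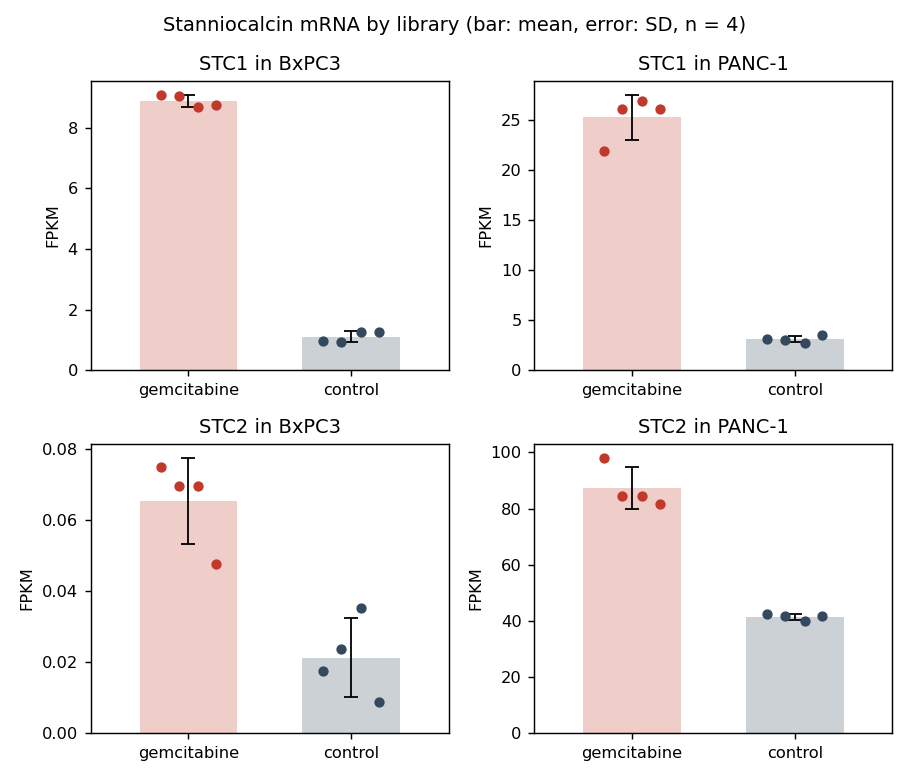
FPKM of STC1 (top) and STC2 (bottom) in each library of BxPC3 (left) and PANC-1 (right), each panel on its own linear axis from 0. Points are libraries, bars the mean and error bars the SD of 4 libraries. All 4 gemcitabine points lie above all 4 control points in every panel, but the STC2 axis in BxPC3 ends below 0.1 FPKM.

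These differences stand against a wide background. In BxPC3, 34.3% of the 12215 genes tested had all gemcitabine libraries above all controls, and in PANC-1 21.3% of 12508 did, so that separation by itself was common. All gemcitabine libraries were below all controls for 33.2% in BxPC3 and 24.5% in PANC-1, which makes 67.5% of genes in BxPC3 and 45.8% in PANC-1 without overlap in either direction. By size of the log2 difference, counted from the highest, STC1 held rank 51 of the tested genes in BxPC3 and rank 7 in PANC-1, and STC2 held rank 360 in PANC-1. The log2(FPKM + 1) scale shrinks STC1 more in BxPC3 (control mean 1.10 FPKM) than in PANC-1 (3.10 FPKM). Its ratios of means were 8.05 and 8.14, so these ranks do not compare the lines. STC1 was also chosen by these values. In BxPC3, 39.8% of the tested genes had a higher mean FPKM than STC1 with gemcitabine and 95.0% in control. In PANC-1 the shares for STC1 were 15.6% with gemcitabine and 71.9% in control, and for STC2 3.25% with gemcitabine and 8.30% in control.

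The order of the levels differed between the lines. The tables of the lines were made separately, so ratios across them are descriptions. STC1 in PANC-1 was 2.84 times its BxPC3 level with gemcitabine and 2.81 times in control. For STC2 the ratio of PANC-1 to BxPC3 was 1333 with gemcitabine and 1953 in control. Its BxPC3 levels rest on only 53 reads with gemcitabine and 17 in control, so the size of these STC2 ratios is uncertain. In descending order, the group means were those of STC2 in PANC-1 with gemcitabine, STC2 in PANC-1 control, STC1 in PANC-1 with gemcitabine, STC1 in BxPC3 with gemcitabine, STC1 in PANC-1 control, STC1 in BxPC3 control, STC2 in BxPC3 with gemcitabine and STC2 in BxPC3 control. No neighbouring groups in this order overlapped in their libraries.

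Since both genes were read in the same library, their proportion does not depend on the scaling of that library. In PANC-1, STC1 made up 18.2, 23.6, 24.1 and 24.2% of the summed FPKM of STC1 and STC2 in the gemcitabine libraries, against 6.95, 6.74, 6.42 and 7.72% in the controls. STC2 thus averaged 3.50 ± 0.660 times the level of STC1 with gemcitabine and 13.4 ± 1.10 times in control. The STC1 share was 22.5 ± 2.89% with gemcitabine, or 24.0 ± 0.331% without replicate 1, and 6.96 ± 0.553% in control. In BxPC3 nearly all of the sum was STC1 in both groups, 99.3 ± 0.127% with gemcitabine and 98.1 ± 0.904% in control. The summed level was 8.95 ± 0.206 FPKM with gemcitabine and 1.12 ± 0.176 FPKM in control in BxPC3, a ratio of 7.96, and 112 ± 5.30 FPKM with gemcitabine and 44.5 ± 1.22 FPKM in control in PANC-1, a ratio of 2.53. The log2 ratio of STC1 to STC2, with 1 FPKM added to each, was higher with gemcitabine by 2.17 in BxPC3 and by 1.62 in PANC-1, or 1.75 without replicate 1. In BxPC3 the added 1 FPKM outweighs STC2 itself, and with nothing added the ratio was higher by 1.25 in BxPC3 and by 1.95 in PANC-1, so which line shows the larger difference turns on this choice.

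**Figure D2:**
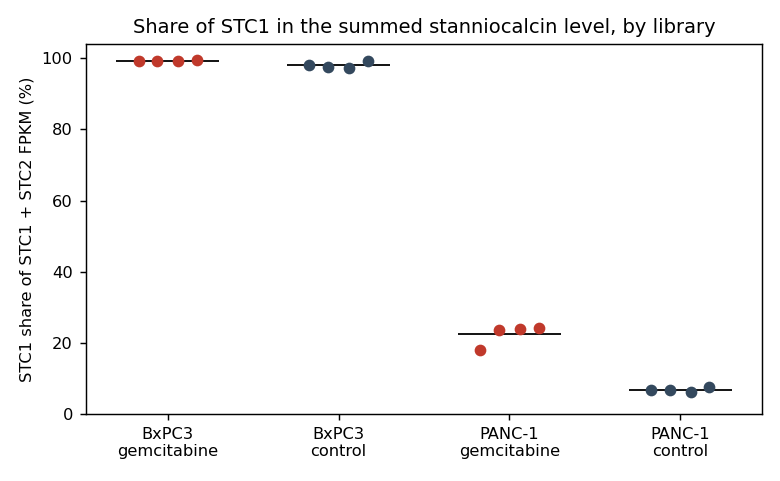
Share of STC1 in the summed FPKM of STC1 and STC2 (vertical axis, percent) in each library, by line and treatment. Points are libraries and lines the means of 4; the share is near its ceiling in BxPC3, whereas in PANC-1 it averages 22.5% with gemcitabine and 6.96% in control.

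The IGF system, on which stanniocalcins act through PAPP-A, was followed gene by gene in each line with limma on log2(FPKM + 1), with Benjamini-Hochberg adjustment over all tested genes. The targets of stanniocalcins themselves were scarce. PAPPA, which encodes PAPP-A, was below the filter in both lines, with 0.0357 FPKM with gemcitabine and 0.00782 FPKM in control in BxPC3, and 0.272 ± 0.0408 FPKM with gemcitabine and 0.508 ± 0.0715 FPKM in control in PANC-1. PAPPA2, its paralogue, had 94 reads over the gemcitabine libraries and 9 over the controls in PANC-1, and 14 over the gemcitabine libraries and 11 over the controls in BxPC3. The growth factor gene IGF1 and PRG2, which encodes another PAPP-A inhibitor, had no read in either line. IGF2 stands under more than one gene identifier and was left out.

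Binding proteins changed in both lines. Of 17 listed genes with a single identifier, 9 were tested in BxPC3, of which 3 rose and 6 fell, with a median log2 change of -0.22; under TPM scaling 3 rose and 3 fell. In PANC-1, 11 were tested, of which 5 rose and 4 fell, with a median of 0.16. Over all tested genes, 37.3% rose and 36.1% fell in BxPC3 and 20.7% rose and 24.0% fell in PANC-1, so that 73.4% were called in BxPC3 and 44.8% in PANC-1. These balances depend on the settings: under TPM scaling (each library scaled to the same sum) 5199 genes rose and 3687 fell in BxPC3, against 4556 and 4408 as deposited, and without the filter 3349 rose and 2926 fell in PANC-1, against 2595 and 3007 with it. All tested genes had median log2 changes of 0.00 in BxPC3 and -0.02 in PANC-1. Below, rose and fell are used of changes with an adjusted p under 0.05.

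IGFBP4, the main substrate of PAPP-A, rose in PANC-1 and fell in BxPC3. The PANC-1 libraries had 330, 231, 230 and 219 FPKM with gemcitabine, against 53.2, 58.6, 57.0 and 54.3 FPKM in control (log2 change 2.14 ± 0.12 SE, limma adjusted p = 2.59e-06). Replicate 1 was the high library, and without it the log2 change was 2.00. In BxPC3 the gemcitabine libraries had 177, 173, 192 and 184 FPKM and the controls 279, 318, 280 and 281 FPKM (log2 change -0.67 ± 0.06 SE, limma adjusted p = 2.41e-06). Neither line showed any overlap between the groups for this gene.

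IGFBP6, a binding protein with a preference for IGF2, rose in both lines. It averaged 460 ± 49.2 FPKM with gemcitabine and 110 ± 6.78 FPKM in control in BxPC3 (limma adjusted p = 9.31e-09), and 21.4 ± 5.43 FPKM with gemcitabine and 6.09 ± 0.749 FPKM in control in PANC-1 (limma adjusted p = 4.26e-05). IGFBP1, which is also a hypoxia-induced gene, rose 4.80-fold in PANC-1 (limma adjusted p = 3.83e-07) and had 25 reads with gemcitabine and 18 in control in BxPC3. IGFBP3, the main carrier of IGF in blood, rose 1.95-fold in PANC-1 and was below 0.1 FPKM on average in both BxPC3 groups. IGFBP7, which binds IGF weakly, rose 1.47-fold in PANC-1.

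IGFBP2, another IGF carrier, fell in BxPC3 to 28.4 ± 2.74 FPKM with gemcitabine, against 137 ± 15.7 FPKM in control (limma adjusted p = 1.05e-08, log2 change -2.22 ± 0.09 SE). Its PANC-1 libraries had 12.2, 7.09, 7.32 and 7.38 FPKM with gemcitabine and 11.1, 12.8, 12.6 and 13.0 FPKM in control. Replicate 1 alone overlapped the controls. The fall passed the test (log2 change -0.52, limma adjusted p = 0.0216), was -0.69 without that library, and was no longer called when control replicate 2, 3 or 4 or gemcitabine replicate 2, 3 or 4 was left out, or without the filter. IGFBP5, a PAPP-A2 substrate, was called lower in BxPC3 (log2 change -0.16, limma adjusted p = 0.0392) with overlapping groups, and that call was lost under TPM scaling, without the filter and on leaving out any 1 of 6 libraries.

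Among the receptors, IGF1R, which carries the growth signal, fell in both lines, to 6.65 ± 0.320 FPKM with gemcitabine against 9.75 ± 0.947 FPKM in control in BxPC3 (limma adjusted p = 7.63e-05), and to 7.43 ± 0.395 FPKM with gemcitabine against 12.3 ± 0.576 FPKM in control in PANC-1 (limma adjusted p = 3.45e-05). IGF2R, which clears IGF2, fell in PANC-1 (log2 change -0.29, limma adjusted p = 0.00496) and was called higher in BxPC3 (log2 change 0.20, limma adjusted p = 0.0308), where the call was lost without control replicate 2 (0.13), without gemcitabine replicate 1 or 2 and without the filter. The insulin receptor INSR was called higher in BxPC3 (log2 change 0.21, limma adjusted p = 0.0454), a call lost on leaving out any 1 of 6 libraries and without the filter, and was not called in PANC-1. The adaptor IRS2 fell in both lines (log2 change -0.22 in BxPC3 and -0.43 in PANC-1), and IRS1 fell in BxPC3 (log2 change -0.34, limma adjusted p = 0.0039) and was not called in PANC-1 (-0.17). Under TPM scaling the BxPC3 calls of IRS1 (-0.26) and IRS2 (-0.16) were lost.

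**Figure D3:**
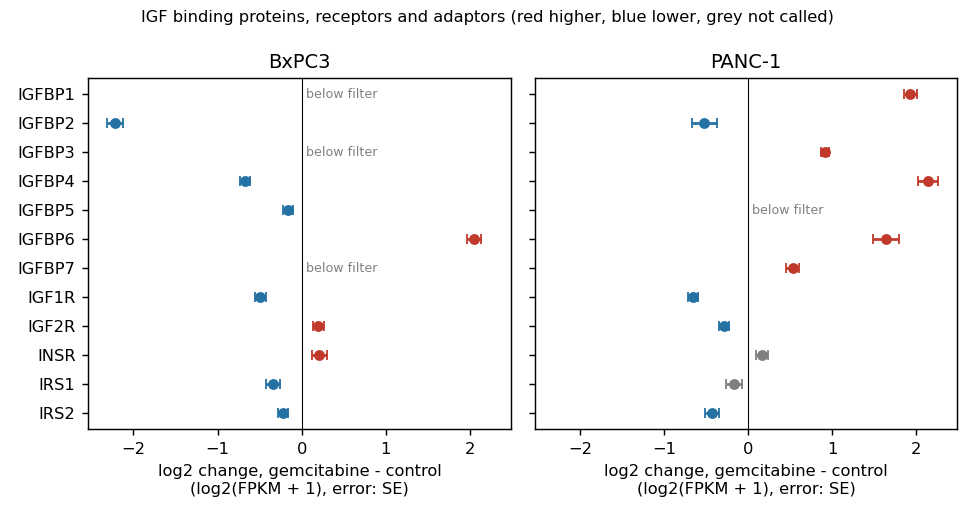
Log2 change (gemcitabine minus control, log2(FPKM + 1), error bars SE) of the tested genes of the IGF system in BxPC3 (left) and PANC-1 (right). Red genes rose, blue genes fell and grey genes were not called at an adjusted p of 0.05; IGFBP4 is at -0.67 in BxPC3 and 2.14 in PANC-1.

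Other known targets of HIF-1 went both ways. In BxPC3, 8 of 27 tested members rose and 15 fell, beside 37.3% and 36.1% of all tested genes, with a median log2 change of -0.19. The carbonic anhydrase CA9, a standard marker of hypoxia, fell to 0.204 ± 0.0994 FPKM with gemcitabine, against 2.48 ± 0.284 FPKM in control, and the MYC antagonist MXI1 to 2.32 FPKM with gemcitabine, against 8.01 FPKM in control. CA9 passed the filter only through the control group, where it is high, so its call is a description. The glycolytic regulator PFKFB3 rose 1.62-fold and lactate dehydrogenase LDHA 1.43-fold. In PANC-1, 8 of 27 rose and 7 fell, beside 20.7% and 24.0% of all tested genes, with a median of -0.04. NDRG1, a stress-response gene, rose 4.49-fold and the hexokinase HK2 4.82-fold, while the lipid droplet protein HILPDA fell to 4.70 ± 0.467 FPKM with gemcitabine, against 13.5 ± 0.479 FPKM in control, and the collagen hydroxylase subunit P4HA2 to 4.23 FPKM with gemcitabine, against 9.37 FPKM in control. NDRG1 fell in BxPC3 (log2 change -1.38, limma adjusted p = 5.58e-10).

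Of the tested targets of ATF4, which is known to induce STC2, 11 of 28 rose and 15 fell in BxPC3, with a median of -0.23. Among all tested genes of that line 37.3% rose and 36.1% fell. The stress-induced chromatin protein NUPR1 (log2 change -3.64) and the mTOR inhibitor DDIT4 (-2.00) fell furthest in BxPC3, and the amino acid transporter SLC7A5 (0.90) and cystathionine gamma-lyase, CTH (0.79), rose. CTH averaged 1.95 FPKM with gemcitabine and 0.704 FPKM in control. It passed the filter in BxPC3 only through the gemcitabine group, so its call there is a description. In PANC-1, where STC2 was 2.11 times its control level, 7 of 31 tested ATF4 targets rose and 7 fell, with a median of -0.05. These counts were near the shares over all tested genes of PANC-1, 20.7% higher and 24.0% lower. The secreted stress cytokine GDF15 (log2 change 0.82) and SLC7A5 (0.74) rose, while DDIT3, which encodes the stress factor CHOP (-0.97), and the mitochondrial enzyme PCK2 (-0.89) fell. Without PANC-1 gemcitabine replicate 1, 29 ATF4 targets were called, 12 higher and 17 lower, in a fit that called 69.8% of all tested genes.

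Chaperones and degradation factors of the endoplasmic reticulum rose in 11 of 18 cases in BxPC3 and fell in 4, or 12 and 2 under TPM scaling, with a median of 0.20. As deposited, 37.3% of all tested BxPC3 genes rose and 36.1% fell. The chaperone cofactor SDF2L1 (log2 change 0.85) and the chaperone HYOU1 (0.77) rose, and the degradation factor HERPUD1 (-0.83) and the transcription factor XBP1 (-0.79) fell. In PANC-1, 1 of 18 rose, the mannosidase-like EDEM1 (log2 change 0.48), and 7 fell, with a median of -0.16, beside 20.7% and 24.0% of all tested genes. The chaperone HSP90B1 fell by 0.65 and the co-chaperone DNAJB9 by 0.63 on the log2 scale. Without gemcitabine replicate 1, 13 members were called in PANC-1, 1 higher and 12 lower, again beside 69.8% of all tested genes.

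Genes of calcium and phosphate handling, the classical field of stanniocalcins, included a phosphate importer that rose in both lines. SLC20A1, a sodium-phosphate cotransporter, averaged 18.6 ± 0.748 FPKM with gemcitabine and 9.64 ± 0.294 FPKM in control in BxPC3 (limma adjusted p = 2.53e-08), and 46.4 ± 3.60 FPKM with gemcitabine and 23.1 ± 0.613 FPKM in control in PANC-1 (limma adjusted p = 5.78e-06). In BxPC3, 11 of 18 tested members rose and 4 fell, beside 37.3% and 36.1% of all tested genes, with a median of 0.21. The store-operated channel ORAI3 (log2 change -1.79) and the plasma membrane calcium pump ATP2B4 (-1.09) fell, and the calcium release channel ITPR2 (0.59) rose. In PANC-1, 4 of 20 rose and 6 fell, or 5 and 4 without the filter, with a median of -0.13. With the filter, 20.7% of all tested PANC-1 genes rose and 24.0% fell. The calcium release channel ITPR3 rose 3.76-fold, whereas ITPR2 (log2 change -0.46) and the calcium pump ATP2B1 (-0.39) fell. The ATP2B1 call was lost when any control replicate was left out.

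**Figure D4:**
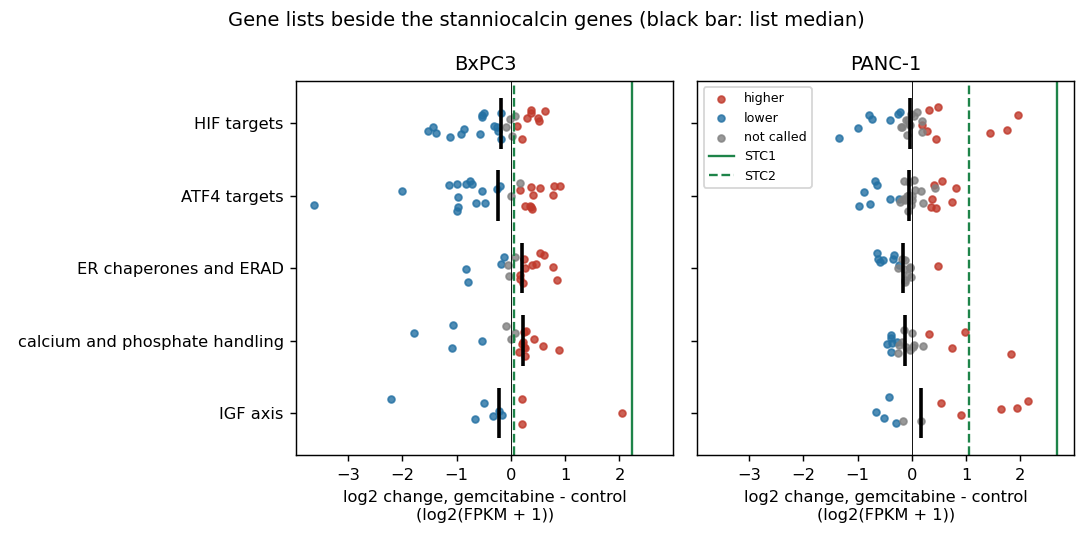
Log2 change (gemcitabine minus control, log2(FPKM + 1)) of the tested members of 5 gene lists in BxPC3 (left) and PANC-1 (right). Points are genes (red rose, blue fell, grey not called), black bars are list medians, and green lines mark STC1 (solid, 2.24 in BxPC3 and 2.68 in PANC-1) and STC2 (dashed, 0.06 in BxPC3, where it was below the filter, and 1.05 in PANC-1).

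Genes near the stanniocalcin loci were examined within 500 kb on either side. Of 18 genes reported around STC1, 4 were tested in BxPC3, of which 2 rose, and 3 in PANC-1, of which 1 rose, while none fell. Among all tested genes the shares higher and lower were 37.3% and 36.1% in BxPC3, and 20.7% and 24.0% in PANC-1. The mitochondrial iron importer SLC25A37, 266 kb away, rose by 0.40 in BxPC3 and 0.37 in PANC-1 on the log2 scale. LOXL2, a collagen cross-linking enzyme 416 kb away, rose in BxPC3 (log2 change 1.80) and was not called in PANC-1 (0.10, or -0.02 without gemcitabine replicate 1). In BxPC3, LOXL2 averaged 4.08 ± 0.320 FPKM with gemcitabine and 0.463 ± 0.135 FPKM in control. LOXL2 thus passed the filter there only through the gemcitabine group, so its call and its place among the 2 that rose are descriptions. The apyrase ENTPD4 was called in neither line, and the metalloproteinase ADAM28 was not called in BxPC3.

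Around STC2, 6 of 30 genes were tested in BxPC3, with 3 higher and 3 lower, and 7 in PANC-1, with 1 higher and 2 lower. The shares of all tested genes called in either direction were 73.4% in BxPC3 and 44.8% in PANC-1. The 6 tested neighbours passed the filter in BxPC3, where STC2 did not: the kinetochore gene BOD1 averaged 31.9 ± 1.62 FPKM with gemcitabine and 37.2 ± 3.18 FPKM in control, and the proton pump subunit ATP6V0E1 70.3 ± 4.83 FPKM with gemcitabine and 79.8 ± 7.52 FPKM in control. In PANC-1, ATP6V0E1 (log2 change -0.27) and the SNARE protein BNIP1 (-0.22) fell, the pseudogene AC008429.2 (0.30) rose, and BOD1, RPL26L1, ERGIC1 and CREBRF were not called. The AC008429.2 call in PANC-1 was lost with limma-voom, without the filter and on leaving out any 1 of 5 libraries. In BxPC3, BNIP1 (0.23), RPL26L1 (0.25) and AC008429.2 (0.35) rose, while BOD1 (-0.22), ATP6V0E1 (-0.18) and ERGIC1 (-0.26) fell. The ATP6V0E1 call in BxPC3 was lost under TPM scaling (-0.09), without the filter and on leaving out any 1 of 5 libraries, among them control replicate 2 (-0.11). RPL26L1 and AC008429.2, a processed pseudogene, may share reads with close copies elsewhere, so their values are uncertain.

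The genes most like each stanniocalcin were ranked among 9754 protein-coding genes tested in both lines, by the root mean square distance over 16 libraries of log2(FPKM + 1) centred on the controls of each line. For STC1 the closest 5 included the mitotic kinase PLK1 (distance 0.40), the EGFR ligand EREG (0.45), the membrane protein TMEM171 (0.51) and the lipid transporter SPNS2 (0.52), where the median gene stood at 1.75. PLK1 averaged 28.8 FPKM with gemcitabine and 8.76 FPKM in control in BxPC3, and 18.0 FPKM with gemcitabine and 2.77 FPKM in control in PANC-1. EREG averaged 18.5 FPKM with gemcitabine and 5.94 FPKM in control in BxPC3, and 17.8 FPKM with gemcitabine and 2.86 FPKM in control in PANC-1. These 4 had smaller log2 differences than STC1 in BxPC3, between 1.33 and 1.61. With a pseudocount of 0.1, 1 of the 5 stayed among the closest 5.

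For STC2 the closest were the potassium channels KCNK6 (distance 0.05) and KCNK1 (0.08), the Wnt receptor FZD8 (0.08), the lysosomal adaptor PLEKHM1 (0.09) and the Notch ligand JAG1 (0.09). Since STC2 is near 0 in BxPC3, its flat profile there comes from the pseudocount, and with 0.1 in its place none of the 5 stayed among the closest 5. The pseudocount also shapes the match of KCNK1 and FZD8 in PANC-1. There KCNK1 averaged 1.31 FPKM with gemcitabine and 0.123 FPKM in control, and FZD8 1.74 FPKM with gemcitabine and 0.422 FPKM in control. Both ratios were larger than the 2.11 of STC2. KCNK6 (7.78 and 3.20 FPKM) and PLEKHM1 (10.2 and 4.41 FPKM) lay closer to it. JAG1 averaged 28.3 FPKM with gemcitabine and 12.0 FPKM in control in PANC-1, and 43.1 FPKM with gemcitabine and 43.7 FPKM in control in BxPC3.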

How the data were processed

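RNA of 16 libraries was isolated with a column kit and poly-A enriched, per the labels' protocols. FPKM values were deposited by the authors as 1 table per line, whose headers also give each gene's length in bases. The submitters' processing notes name CASAVA and HISAT2 but no versions, and the program that counted reads is not given in the sources used here. The notes name the mouse build mm10, but all 58735 identifiers are human and have the start and end of GENCODE 29, so coordinates are GRCh38. FPKM times length was a whole multiple of a step per library for 100.0% of values above 0, within 0.02 reads, which gives the reads. Every pair of replicates differed by more than counting noise: the lowest chi-square divided by its degrees of freedom was 2.04.

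Each line was fitted alone with limma 3.58.1 in R 4.3.3 (trend, robust) on log2(FPKM + 1), over genes reaching 1 FPKM in at least 4 libraries; p-values were adjusted by Benjamini-Hochberg and called at 0.05. The procedure was also run on simulated data that held no deviating library, so that run does not cover PANC-1 gemcitabine replicate 1. Tables were read with pandas 2.3.3, intervals came from scipy 1.17.1 and figures from matplotlib 3.10.9. The members, lists and rules were chosen with earlier results of these data known. The rule for named genes took the members, every tested gene of the IGF list, per line and list the 2 largest called changes in each direction, the 5 genes most like each member, tested genes within 500 kb, and SMAD4 and CDKN2A as label checks. CDKN2A had no read in any library. Genes that this rule names but the text does not give, 1 near STC1 and 1 most like it, are not reported here. Alternatives were a pseudocount of 0.1, median-ratio and TPM scaling, no filter, limma without trend and robust, limma-voom on recovered reads, a log2 change of 1, the replicate number as a block and each library left out.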

Additional observations from a re-analysis of the deposited data

Results flagged for a closer look

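In PANC-1 gemcitabine replicate 1, STC1 stood at 21.9 FPKM, below the 26.1 to 26.9 FPKM of the other 3 libraries, and the log2 ratio of STC1 to STC2 at -2.12, below their -1.66 to -1.61. The gap to the nearest library took up most of the range of the group in both cases. STC2 in that library was the highest of its group and did not pass the same criterion. All 242 groups of 4 libraries behind the named genes were examined in this way, and chance marks about 1 group in 20. In all, 43 library values were marked, 25 of them in PANC-1 gemcitabine replicate 1 and 15 in BxPC3 control replicate 2.

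In PANC-1 gemcitabine replicate 1 these genes were the high value of their group: ATP6V0E1 (118 FPKM, others 105 to 105), BOD1 (70.5 FPKM, others 62.1 to 63.3), DDIT4 (80.1 FPKM, others 45.5 to 48.2), ERGIC1 (28.3 FPKM, others 21.2 to 21.8), GDF15 (1035 FPKM, others 603 to 615), HYOU1 (92.2 FPKM, others 75.8 to 78.5), IGFBP2 (12.2 FPKM, others 7.09 to 7.38), IGFBP4 (330 FPKM, others 219 to 231), IRS1 (12.4 FPKM, others 9.12 to 9.57), ITPR3 (73.0 FPKM, others 48.2 to 50.7), KCNK6 (9.40 FPKM, others 7.11 to 7.31), LOXL2 (14.8 FPKM, others 9.91 to 10.4), PCK2 (21.3 FPKM, others 13.7 to 14.1), PLEKHM1 (12.5 FPKM, others 9.20 to 9.65), SDF2L1 (38.1 FPKM, others 21.1 to 22.4), SLC7A5 (214 FPKM, others 149 to 150), SPNS2 (50.7 FPKM, others 32.9 to 33.3). These were the low value: ATP2B4 (19.2 FPKM, others 21.5 to 21.9), CREBRF (2.06 FPKM, others 3.52 to 3.77), DNAJB9 (10.0 FPKM, others 15.2 to 16.1), HSP90B1 (90.6 FPKM, others 124 to 129), ITPR2 (2.48 FPKM, others 3.15 to 3.20), SMAD4 (3.03 FPKM, others 3.87 to 3.94).

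In BxPC3 control replicate 2 these genes were high: ATP6V0E1 (91.0 FPKM, others 75.4 to 76.6), HSP90B1 (111 FPKM, others 96.6 to 97.8), IGFBP2 (160 FPKM, others 128 to 130), IGFBP4 (318 FPKM, others 279 to 281), NUPR1 (37.0 FPKM, others 31.4 to 32.3), PCK2 (27.6 FPKM, others 24.3 to 24.5), RPL26L1 (15.9 FPKM, others 13.0 to 13.2). These were low: IGF1R (8.35 FPKM, others 10.1 to 10.4), IGF2R (8.02 FPKM, others 9.53 to 9.77), IGFBP5 (36.6 FPKM, others 43.2 to 44.4), IRS1 (17.4 FPKM, others 22.1 to 22.7), ITPR3 (14.6 FPKM, others at least 19.3), JAG1 (41.1 FPKM, others 44.3 to 44.7), PLEKHM1 (5.47 FPKM, others 6.05 to 6.11), SLC7A5 (81.7 FPKM, others 86.3 to 87.2).

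AC008429.2 was at 1.77 FPKM in PANC-1 control replicate 1, against 1.23 to 1.27 FPKM in the others of its group. DDIT3 was at 88.8 FPKM in PANC-1 control replicate 3, against 93.8 to 94.2 FPKM in the others of its group. PFKFB3 was at 11.7 FPKM in BxPC3 gemcitabine replicate 4, against 12.3 to 12.4 FPKM in the others of its group.

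For some genes all gemcitabine libraries lay on opposite sides of the controls in the 2 lines, and the difference between the lines was not tested. Lower in BxPC3 and higher in PANC-1 with gemcitabine, as log2 changes in that order, were ATP2B4 (-1.09 and 0.73), EDEM1 (-0.19 and 0.48), ERGIC1 (-0.26 and 0.21), IGFBP4 (-0.67 and 2.14), NDRG1 (-1.38 and 1.96). Higher in BxPC3 and lower in PANC-1 were ATP2B1 (0.07 and -0.39), CTH (0.79 and -0.23), ITPR2 (0.59 and -0.46), P4HA2 (0.50 and -0.99). ERGIC1 in PANC-1 and ATP2B1 in BxPC3 did not pass the test within the line. The PANC-1 call of CTH was lost under TPM scaling, without the filter and on leaving out any 1 of 4 libraries, that of ATP2B1 without the filter or any 1 control library, and the BxPC3 call of EDEM1 under TPM scaling.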

How the results depend on the processing

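No called value changed direction (uncalled values near 0, such as LOXL2 in PANC-1, did), and 238 of 265 values of the members, their ratio and the list counts stayed within the replicate spread or within 1.5 times the count. Those 238 include the replicate-block values of the members and their ratio, which cannot differ by construction. For STC1 the log2 difference in BxPC3 was 2.24, and it was 2.91 with a pseudocount of 0.1, 2.81 with TPM scaling and 3.01 with limma-voom. In PANC-1 it was 2.68, and 2.98, 2.94 and 3.02 under the same 3 alternatives. For STC2 in BxPC3 it was 0.06, and 0.45 with a pseudocount of 0.1 and 0.21 with TPM scaling; limma-voom gave no value, as the gene was below the filter. TPM values are larger than FPKM values, so 1 added to them weighs less. The STC1 to STC2 ratio differed by 2.46 in BxPC3 and 1.92 in PANC-1 with a pseudocount of 0.1, and by 1.25 in BxPC3 and 1.95 in PANC-1 with none, an alternative chosen after seeing the data. TPM scaling moved the median of all genes by 0.08 in BxPC3, where 5199 genes were then higher and 3687 lower; without the filter 3349 were higher and 2926 lower in PANC-1. With a log2 change of at least 1, 1029 genes were called in BxPC3 (538 higher, 491 lower) and 534 in PANC-1 (401 higher, 133 lower). Of the lists, that left in BxPC3 2 genes of the IGF system, 4 HIF targets, 3 ATF4 targets, 0 of the endoplasmic reticulum and 3 of calcium and phosphate. In PANC-1 it left 3, 4, 0, 0 and 1 in the same order. Leaving out a library gave 4641 to 8728 calls in PANC-1, 11 to 29 for ATF4 targets and 7 to 13 for the endoplasmic reticulum, the highest each time without gemcitabine replicate 1; 5569 of the 5602 calls made from 8 libraries were shared with that fit. Among the named genes, 74 of 1695 values lost a call and 14 gained one. Some of these values belong to genes not called in the main fit, which had no call to lose. By gene, 10 of 56 named genes in BxPC3 and 5 of 57 in PANC-1 lost a call under at least 1 alternative. The deviations of same-numbered libraries correlated at -0.38 to 0.19, which shows no clear pairing by replicate number. With 4 numbers per line, these correlations cannot exclude a pairing. With the replicate block 8553 genes were called in BxPC3 and 4639 in PANC-1, against 8964 and 5602. The log2 differences of STC1 (2.24 and 2.68), STC2 (0.06 and 1.05) and their ratio (2.17 and 1.62) cannot change under that block. With groups of equal size, the mean of same-numbered differences is the difference of the group means. For the IGF system in BxPC3 the block left 1 gene higher and 5 lower, and BNIP1 in PANC-1 was among the calls it lost. Depth limits STC2 in BxPC3, where 3 reads correspond to 0.0131 to 0.0175 FPKM.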
